A study of Mus musculus with 33 samples.

Results

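A list of 8 genes by which fat cells are recognised was followed through the mouse thymus: Car3, Adipoq, Fabp4, Cfd, Lpl, Plin1, Cidec and Pparg. They were chosen by gene symbol, with every probe set of each symbol read on every array. Of the 8 listed genes, 6 had a probe set under their symbol, which gave 13 probe sets among the 45037 on the array and 6 genes among 18193. Cfd, the serine protease adipsin, and Plin1, the coat protein of fat droplets, are not analysed here. The list was drawn up for a signal at the thymic capsule, the connective tissue sheet that bounds the organ next to the outermost cortex. Earlier results of these data were known when the list was drawn up, so the values that follow describe the genes and do not support the name. Among all genes tested, 24.3% were higher in subcapsular cortex without overlap against perimedullary cortex and 21% against central cortex. The share for both at once was not counted. On the brightest probe set, 3 of the 6 genes measured were higher in subcapsular cortex than in both other subregions on every array. They were Car3, Adipoq at a low level, and Cidec at signals below the median of each of those arrays. Fabp4 showed this on its second probe set only and was higher in whole medulla than in whole cortex on both. Lpl was highest among the subregions in perimedullary cortex on its brightest probe set, and Pparg was dim and overlapped among the subregions. They are therefore called the listed adipocyte genes below.

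All RNA came from C57BL/6J animals, male by their labels and aged 4 to 6 weeks, with no treatment or mutation named for any group. Microdissected tissue gave 23 arrays: subcapsular cortex (n = 3), perimedullary cortex (n = 3), central cortex (n = 3), whole medulla (n = 7) and whole cortex (n = 7). Flow-sorted cells gave the other 10 arrays: medullary thymocytes, gated as CD45+ with high CD3 (n = 5), and cortical thymocytes, gated as CD45+ that lacked CD3 or had little of it and carried CD90 or CD117 (n = 5). By title the arrays are biological replicates, yet no label ties a region to an animal, so arrays may share animals and p-values then measure only the spread between these samples. Each value is the deposited array signal of 1 probe set on a linear scale.

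White adipocytes store triglyceride in a large droplet, release leptin and adiponectin, and take up fatty acids that lipoprotein lipase frees from circulating lipoproteins. PPARG, a nuclear receptor, drives their differentiation and acts on the genes of adiponectin, FABP4, perilipin and CIDEC. In the thymus, fat cells are known from the tissue around the capsule and from the organ as it shrinks with age. Several of the listed genes also have known roles outside fat: Fabp4 and Pparg in macrophages, Fabp4 in capillary endothelium, Lpl in macrophages and muscle, and Car3 in skeletal muscle and liver.

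The labels were checked against genes of known position. Psmb11, the thymoproteasome subunit of cortical epithelium, had signals of 88.3 to 151 in whole medulla and 1828 to 3325 in whole cortex, and Aire, the regulator of self-antigen expression in medullary epithelium, had 2092 to 2639 in whole medulla and 6.3 to 61 in whole cortex. Rag1, the recombinase of immature thymocytes, had 412 to 1324 in whole medulla and 30868 to 61756 in whole cortex. Ccr7, the chemokine receptor of mature thymocytes, had 7985 to 10296 in sorted medullary and 93.6 to 126 in sorted cortical thymocytes. The median signal of an array ranged from 71.9 to 163, and correlations of log2 signal between arrays of a group ranged from 0.916 to 0.984. Whole medulla arrays had medians of 128 to 163, higher than every other array, which matters for the dim genes below. On 13 arrays the upper tail of the signals was wide, with over 0.1% of probe sets above 42000: whole cortex 1 to 5, whole medulla 1 to 5 and medullary thymocytes 1 to 3. Results that change without these arrays are given both ways.

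Car3 encodes carbonic anhydrase III, a cytosolic enzyme that is among the most abundant proteins of adipocytes. Its brightest probe set, 1449434_at, had signals of 445, 743 and 1425 in subcapsular cortex, against 39.9, 4.31 and 7.97 in perimedullary cortex and 4.52, 22.2 and 16.2 in central cortex. All 3 subcapsular arrays lay above all 6 arrays of the other subregions, and they differed among themselves by a factor of 3.2. In bulk tissue, fewer cells of a type and less RNA per cell cannot be told apart. Car3 stood between the 74.3th and the 88th percentile of the probe sets in subcapsular arrays, at or below the 34.1th in perimedullary and at or below the 25.4th in central arrays. In whole medulla it had 138 to 244 (median 187) and in whole cortex 141 to 1765 (median 313). The whole cortex arrays differed by a factor of 12.5, with replicate 3 highest and replicate 2 lowest, while those of whole medulla differed by a factor of 1.77. Sorted medullary thymocytes had 24.9, 66.1, 4.71, 7.08 and 17.2, and sorted cortical thymocytes 7.94, 5.15, 3.05, 2.34 and 2.42. In order of the group medians, subcapsular cortex was followed by whole cortex and whole medulla, each overlapping the next. All 3 lay apart from the remaining groups. This order sets subregion arrays beside whole-region arrays, a split described below for Fabp4 and Lpl.

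The Car3 pattern rests on 1 of its 4 probe sets. The other passing one, 1460256_at, had 20, 20.2 and 104 in subcapsular cortex, 19, 44.7 and 28.7 in perimedullary cortex and 58, 36.8 and 11.2 in central cortex, so the subregions overlapped. Probe sets 1430584_s_at and 1453588_at did not pass the filter on low values and reached at most 104 and 57 on any array. In the last of these the subcapsular arrays ranged from 2.1 to 35.6, against 1.21 to 6.92 in perimedullary and 0.881 to 3.98 in central cortex.

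Adipoq encodes adiponectin, a hormone secreted by adipocytes. Its single probe set, 1422651_at, had 61.7, 78.2 and 138 in subcapsular cortex, against 34.2, 23.3 and 41.8 in perimedullary cortex and 33.4, 49.6 and 19.7 in central cortex. The subcapsular arrays again lay above all others of the subregions, but at a low level, since only 1 of the 3 exceeded the median of its own array. Whole medulla had 95.4 to 154 (median 143) and whole cortex 51.3 to 146 (median 85.1). Relative to all probe sets of the same array, Adipoq stood at the 43.9th to 58.6th percentile in subcapsular cortex, the 44th to 52.8th in whole medulla and the 31.2th to 59.2th in whole cortex, which overlap. Sorted medullary thymocytes had 16.2, 24.9, 17.6, 36.4 and 54.8, and sorted cortical thymocytes 4.5, 3.56, 35.9, 20.9 and 16.5. By group median subcapsular cortex came after whole medulla and whole cortex as deposited, and came first after quantile normalization. This order too sets subregion arrays beside whole-region arrays.

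Promoter sequences are shown for Adipoq, which shared the subcapsular direction of Car3, and for Cidec, another known target of PPARG, which showed it only at signals below the array median. They run from 250 bases before to 50 bases after the annotated start (RefSeq, GRCm38.p6). Capitals mark matches on either strand to CCAAT, to the C/EBP-like motif TTGCNNAA, to TATAAA, to the nuclear receptor site AGGTCA, or to its pair AGGTCANAGGTCA, within which AGGTCA also lies. Adipoq lies at chr16:23146286-23146585 on the plus strand, and the 2 starts of Cidec at chr6:113434715-113435014 and chr6:113435711-113436010 on the minus strand.
Adipoq: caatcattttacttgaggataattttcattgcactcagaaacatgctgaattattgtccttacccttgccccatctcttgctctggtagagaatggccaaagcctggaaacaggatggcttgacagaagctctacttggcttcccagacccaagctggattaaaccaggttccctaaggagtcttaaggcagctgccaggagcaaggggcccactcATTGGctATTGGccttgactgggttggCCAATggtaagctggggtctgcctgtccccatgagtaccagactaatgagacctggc
Cidec start 1: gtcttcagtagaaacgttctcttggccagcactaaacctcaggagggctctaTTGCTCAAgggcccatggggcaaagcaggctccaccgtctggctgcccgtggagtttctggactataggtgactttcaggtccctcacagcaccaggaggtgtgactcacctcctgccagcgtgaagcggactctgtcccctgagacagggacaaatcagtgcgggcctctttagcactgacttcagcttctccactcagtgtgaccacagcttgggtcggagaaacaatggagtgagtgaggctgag
Cidec start 2: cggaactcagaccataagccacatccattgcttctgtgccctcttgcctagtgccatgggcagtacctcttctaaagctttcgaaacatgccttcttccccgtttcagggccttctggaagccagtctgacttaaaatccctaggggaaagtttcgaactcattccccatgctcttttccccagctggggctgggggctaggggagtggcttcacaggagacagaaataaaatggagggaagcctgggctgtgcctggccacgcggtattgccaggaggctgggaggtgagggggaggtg
The Adipoq window held 3 CCAAT matches, 34, 27 and 7 bases before the start by their first base. The first Cidec window held 1 TTGCNNAA match, 198 bases before the start, and the second none of the motifs. Of 32851 promoter windows of this length, 37.4% held CCAAT, 10.8% TTGCNNAA, 13.6% TATAAA, 16.3% AGGTCA and 0.0396% the AGGTCANAGGTCA pair. A missing match says only that these letters are not in this window. Pparg has 3 listed starts, of which 2 held AGGTCA. Car3, Fabp4 and Lpl have no entry in the promoter table used.

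**Figure D1:**
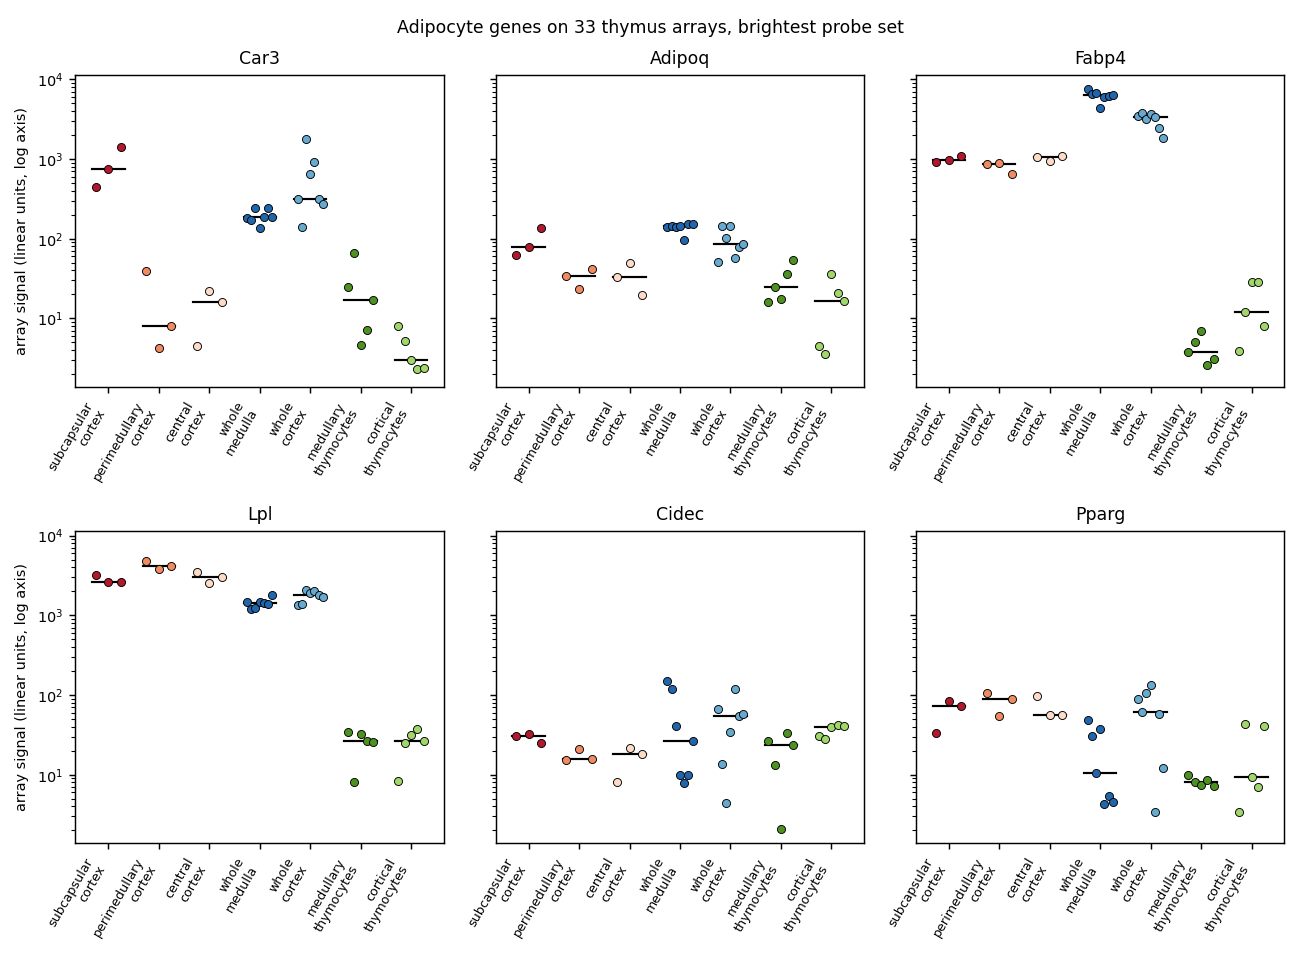
Array signal (linear units, log axis) of the brightest probe set of each measured gene on all 33 arrays, 1 point per array and a line at the group median, in 7 groups. Car3 reached 445 to 1425 on the subcapsular arrays and stayed at or below 39.9 on those of perimedullary and central cortex, while Fabp4 was higher in whole medulla than in whole cortex and Lpl was highest among the subregions in perimedullary cortex.

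Fabp4 encodes the fatty acid binding protein of adipocytes, macrophages and capillary endothelium. Probe set 1417023_a_at had 917, 978 and 1092 in subcapsular cortex, 855, 901 and 642 in perimedullary cortex and 1046, 931 and 1091 in central cortex. Subcapsular and central cortex overlapped, and both lay above perimedullary cortex. Whole medulla had 4421 to 7604 (median 6305) and whole cortex 1839.9 to 3822 (median 3336), without overlap. In sorted cells the signal was near the bottom of the array, at 2.6 to 6.87 in medullary and 3.93 to 29 in cortical thymocytes. The second bright probe set, 1451263_a_at, had 1298, 1552 and 1589.6 in subcapsular cortex, 910.3, 1039 and 1001 in perimedullary cortex and 1281, 989 and 1002 in central cortex. Here the subcapsular arrays were the highest of the 3 subregions, which 1417023_a_at did not show. Whole medulla had 1999.7 to 4273 (median 3298) and whole cortex 803 to 1502 (median 1025) on 1451263_a_at, so both probe sets put medulla above every cortical group. Probe sets 1424155_at and 1425809_at did not pass the filter and had no array above 119 and 143, in both cases in whole medulla.

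Fabp5, a close relative of Fabp4 found in epithelium and immune cells, had 20886 ± 1382 in subcapsular cortex (SD, n = 3), 3172 ± 584 in medullary thymocytes and 4768 ± 378 in cortical thymocytes (SD, n = 5 each). In those sorted cells Fabp4 stayed at or below 29 on 1417023_a_at, under the array median, while Fabp5 was above it.

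Lpl encodes lipoprotein lipase, which frees fatty acids from triglyceride-rich lipoproteins at the capillary wall. Probe set 1415904_at had 3185, 2588 and 2603 in subcapsular cortex, against 4728, 3779.6 and 4118 in perimedullary cortex and 3471, 2541 and 3053 in central cortex. Perimedullary cortex lay above both other subregions on every array, and subcapsular and central cortex overlapped. Whole medulla had 1208 to 1814 (median 1407) and whole cortex 1350.4 to 2083 (median 1797), which overlapped. Sorted medullary thymocytes had 8.17 to 34.4 and sorted cortical thymocytes 8.3 to 37.9. The dimmer probe set 1431056_a_at gave another order, with 103, 119 and 73 in subcapsular cortex, 211, 114 and 189.6 in perimedullary cortex, 126, 102 and 125 in central cortex, 212 to 396 in whole medulla and 144 to 423 in whole cortex.

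The 2 probe sets of Fabp4 and of Lpl therefore did not keep a constant ratio. For Fabp4, 1417023_a_at over 1451263_a_at was 0.63 to 0.707 in subcapsular cortex, 0.641 to 0.939 in perimedullary cortex, 0.817 to 1.09 in central cortex, 1.46 to 2.96 in whole medulla and 2.02 to 3.94 in whole cortex. For Lpl, 1415904_at over 1431056_a_at was 21.7 to 35.7 in subcapsular cortex, 21.7 to 33.3 in perimedullary cortex, 24.4 to 27.6 in central cortex, 3.8 to 5.7 in whole medulla and 3.52 to 9.49 in whole cortex. In both genes the ratio separated the subregion arrays from the whole-region arrays, and this held for cortex alone. On 1417023_a_at all 7 whole cortex arrays were above all 9 arrays of its subregions (1839.9 to 3822 against 642 to 1092), and on Lpl 1415904_at all 7 were below (1350.4 to 2083 against 2541 to 4728). Over the 13463 genes tested, 10.2% had all whole cortex arrays above and 12.4% all below their subregion arrays. The set of arrays and the dissection scheme cannot be told apart here. Group differences of Fabp4 and Lpl are therefore given below only within the subregions or within the whole regions. The correlations over all dissected arrays span this split, as do the orders and ranks of groups by median for every gene.

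**Figure D2:**
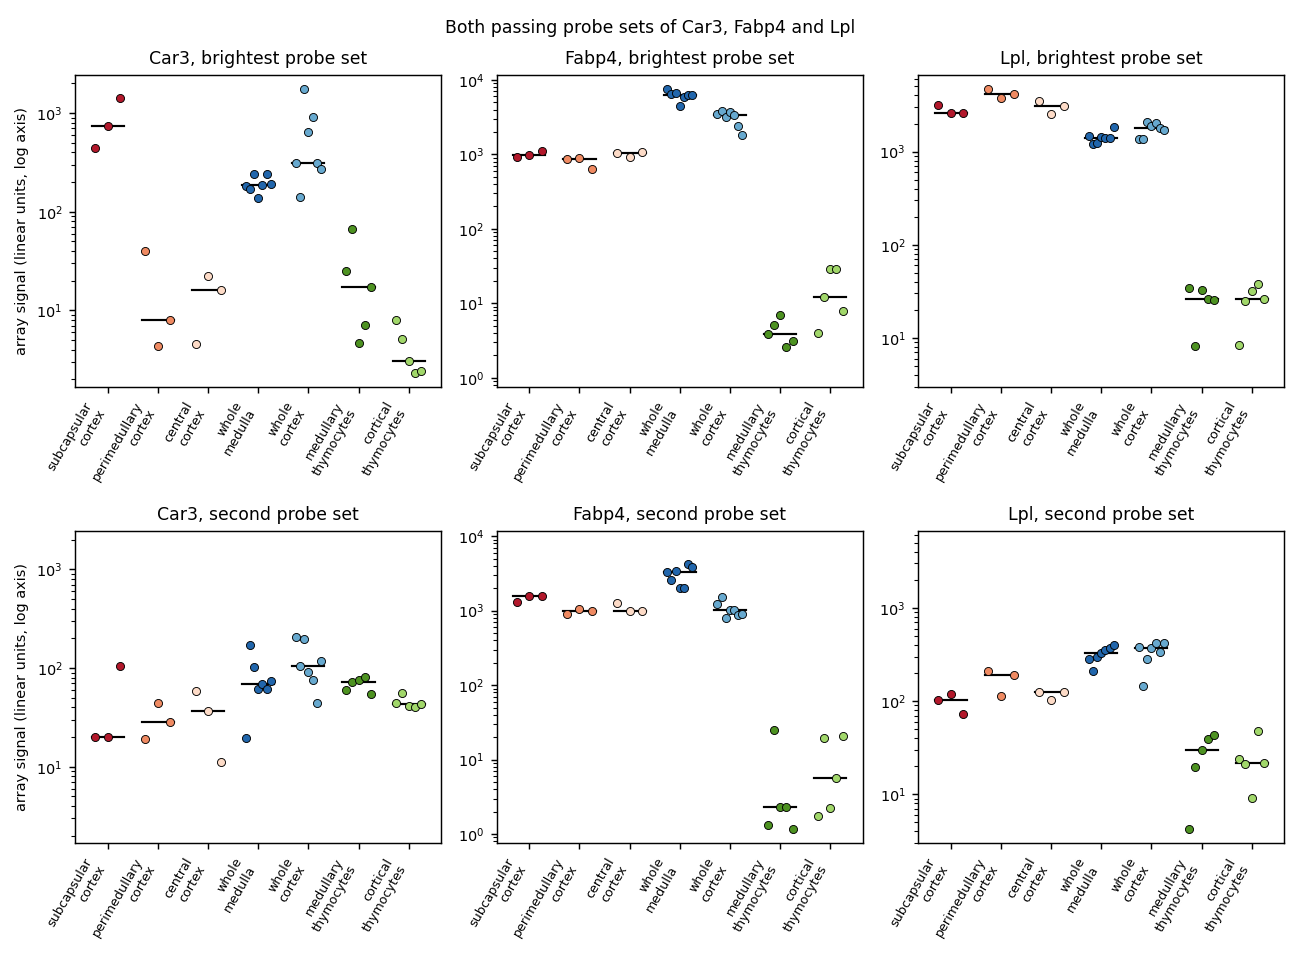
Array signal (linear units, log axis) of both passing probe sets of Car3, Fabp4 and Lpl, 1 point per array, a line at the group median, brightest probe set above and second below, in 7 groups. The second Car3 probe set overlapped between all 3 subregions, and the second Lpl probe set was brighter in the whole regions than in the subregions for most arrays, the opposite of the brightest one.

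Pparg encodes the nuclear receptor PPARG, the main transcription factor of adipocyte differentiation. Probe set 1420715_a_at had 33.8, 83.3 and 72.6 in subcapsular cortex, 105, 54.8 and 89 in perimedullary cortex and 96.6, 56.2 and 56.9 in central cortex, with overlap among all 3 and 1 array of each group above its array median. Whole medulla had 4.34 to 49.1 (median 10.6) and whole cortex 3.43 to 133 (median 61.5). Sorted medullary thymocytes had 7.21 to 10 and sorted cortical thymocytes 3.4 to 42.8.

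Cidec encodes a droplet protein through which lipid passes between fused droplets. Its probe set, 1452260_at, did not pass the filter. It had 30.5, 32.7 and 24.7 in subcapsular cortex, 15.5, 20.9 and 15.8 in perimedullary cortex and 8.2, 21.4 and 18.2 in central cortex, all under the median of their arrays. The subcapsular arrays were the highest of the subregions, yet sorted cortical thymocytes, at 30.5, 28.4, 40, 42 and 41.3, overlapped or exceeded them. Whole medulla ranged from 7.83 to 152 and whole cortex from 4.39 to 119.6. Every group overlapped the next in order of the medians.

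Subcapsular cortex against the other subregions was the contrast for which these genes were listed, so the differences are a description. On the scale of log2(signal + 26.2), where the added offset shrinks the differences of dim genes, subcapsular minus perimedullary cortex was 4.3 for Car3, 0.96 for Adipoq, 0.32 for Fabp4, -0.59 for Lpl and -0.31 for Pparg. Subcapsular minus central cortex was 4.34 for Car3, 0.95 for Adipoq, -0.04 for Fabp4, -0.11 for Lpl and -0.12 for Pparg. With the mean of the passing probe sets of a gene in place of the brightest, the Car3 differences were 2.26 and 2.25, and Fabp4 minus central cortex was 0.2. Groups without overlap and higher in subcapsular cortex were found for 24.3% of all genes against perimedullary and 21% against central cortex, and without overlap and lower for 21.7% and 17.8%. Genes called over the whole table, at an adjusted p below 0.05 and an absolute log2 fold change of at least 1, made up 4.57% against perimedullary cortex (1.66% higher and 2.91% lower) and 1.29% against central cortex (0.847% higher and 0.446% lower).

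Other genes of white adipocytes were read in the outermost cortex too. Of 21 such genes, 20 had a probe set and 15 were tested. In subcapsular cortex 0 were called by limma against perimedullary or central cortex, beside 4.57% and 1.29% of all genes. At those shares a count of 0 among 15 says little about these genes. At an unadjusted p under 0.05 the count was 1 of the 15 in each comparison, namely Fasn. The median log2 fold change over the 15 was 0 and 0.09, beside 0 and 0.01 over all genes. On the subcapsular arrays 10 of the 20 stayed at or below the array median, beside 10 on perimedullary and 11 on central arrays. Those of the subcapsular arrays included the hormone leptin (Lep), the droplet protein Plin4, Adig and the glycerol channel Aqp7. The hormone-sensitive lipase Lipe and the gluconeogenic enzyme Pck1 were among them too. The brightest was Fasn, fatty acid synthase, with 4503 ± 663 in subcapsular cortex, 2277 ± 150.1 in perimedullary and 2891 ± 211 in central cortex (SD, n = 3 each). Its log2 fold changes of 0.97 (SE 0.15, adjusted p = 1.7e-05) and 0.63 (SE 0.15, adjusted p = 0.0076) stayed under the size needed for a call. Fasn is also expressed in many dividing and lipid-making cells. The summed signal of the 20 genes was 6325 to 7517 in subcapsular cortex, 4438 to 4789 in perimedullary and 4797 to 5477 in central cortex, and Fasn was the largest part of it in subcapsular cortex.

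Brown adipocyte genes were at or below the array median in subcapsular cortex for 5 of 7. They were Ucp1, the uncoupling protein that defines brown fat, Cidea, Elovl3, Cox8b and Otop1. In perimedullary and in central cortex the count was 6 of 7 each. The 7 summed to 452 to 517 in subcapsular cortex, 308 to 350.1 in perimedullary and 274 to 356 in central cortex. Over all genes 4.57% were called against perimedullary and 1.29% against central cortex. Of the 4 brown adipocyte genes tested, 0 were called by limma or had an unadjusted p under 0.05 in either comparison. The brightest, Dio2, a deiodinase that activates thyroid hormone, had 253 ± 25.7 in subcapsular, 187 ± 30.6 in perimedullary and 168 ± 28.4 in central cortex (SD, n = 3 each).

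Markers of other cell types were measured on the same arrays. Fibroblast markers were higher in subcapsular than in central cortex in 7 of 8 tested genes and lower in 0, and against perimedullary cortex in 3 of 8. The collagen Col3a1 had 2181 ± 353 in subcapsular and 426 ± 66.7 in central cortex (SD, n = 3 each; log2 fold change 2.29, SE 0.25, adjusted p = 1.6e-07). Col1a2 (2.15), the mesenchymal marker Pi16 (1.75) and the proteoglycan Dcn (1.69) were the next largest. Their sum over 9 genes was 7406 to 10378 in subcapsular cortex, 3741 to 4368 in perimedullary and 2023 to 2497 in central cortex, without overlap. Thus the fibroblast markers moved in the same direction as Car3 and Adipoq on these 9 arrays, and their part in the Car3 and Adipoq differences was not tested.

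Skeletal muscle markers, relevant because muscle is rich in Car3, stayed at or below the array median on the subcapsular arrays in 7 of 8 genes. The count was 7 on perimedullary and 6 on central arrays. Of 6 tested, 0 were called by limma in either subcapsular comparison, beside 4.57% of all genes against perimedullary and 1.29% against central cortex. At an unadjusted p under 0.05 were 2 of these markers against perimedullary and 1 against central cortex. Their sum was 892 to 991 in subcapsular cortex, 832 to 912 in perimedullary and 1002 to 1111 in central cortex, most of it from Mylpf, a fast myosin light chain. Mesothelial markers, of the cells that cover serous surfaces, summed to 424 to 879 in subcapsular, 398 to 489 in perimedullary and 375 to 570.1 in central cortex, with Msln, Lrrn4 and Wt1 at or below the median on all subcapsular arrays. Endothelial markers summed to 1110.4 to 1180.2 in subcapsular, 1343 to 1428 in perimedullary and 1075 to 1149 in central cortex. Macrophage markers summed to 8544 to 10241 in subcapsular, 19773 to 22145 in perimedullary and 10371 to 13029 in central cortex. In subcapsular against perimedullary cortex 5 of 10 macrophage markers were called lower and 1 higher and Lpl was lower there too; their part in the Lpl difference was not tested.

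**Figure D3:**
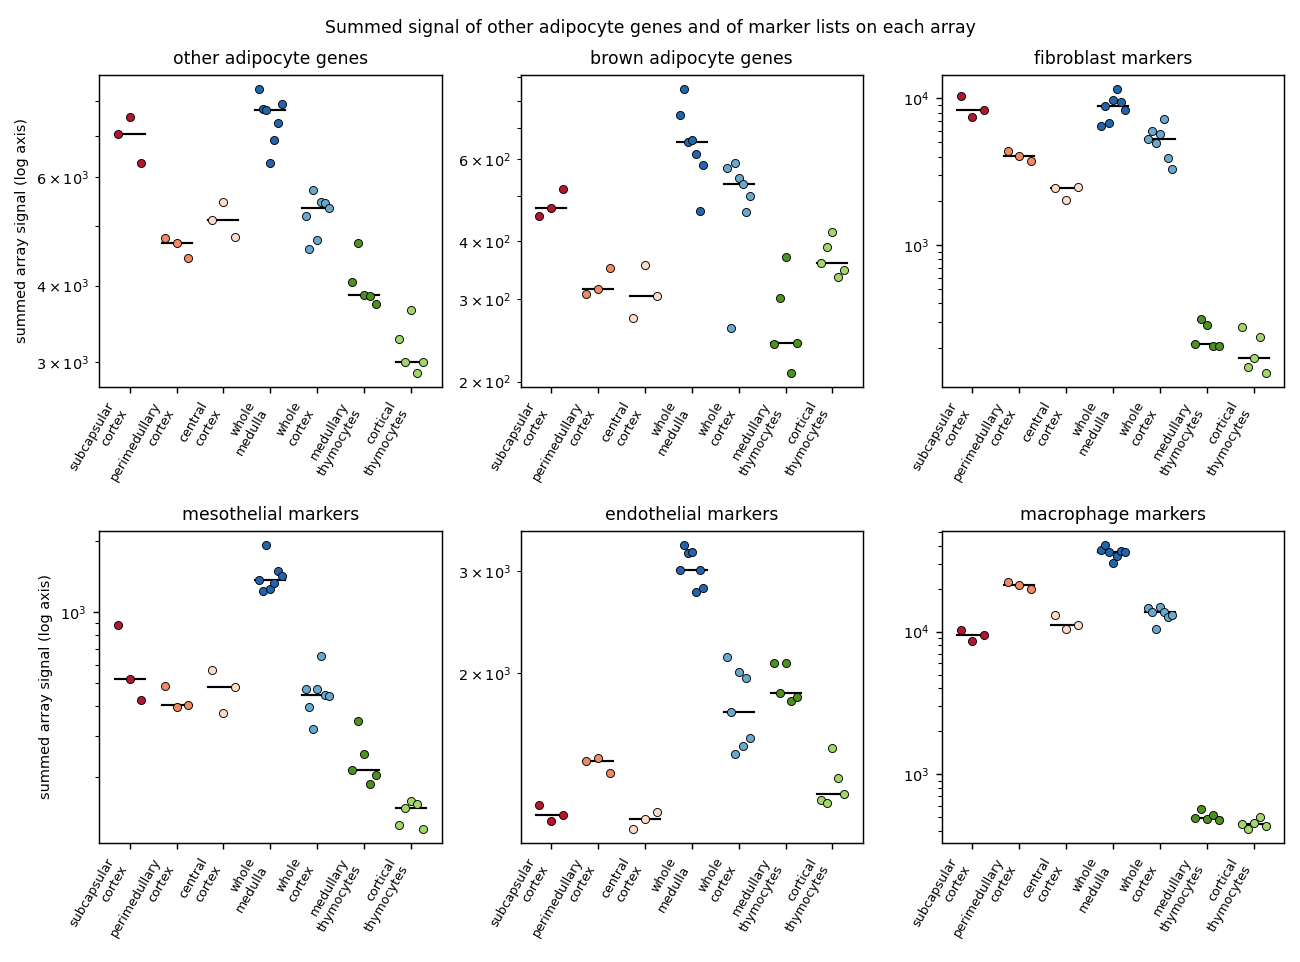
Summed array signal (linear units, log axis) of 6 fixed gene lists on each of 33 arrays, 1 point per array and a line at the group median, in 7 groups. The fibroblast sum was 7406 to 10378 in subcapsular cortex and at most 4368 in the other subregions, and the macrophage sum was lowest among the subregions in subcapsular cortex.

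Whole medulla was compared with whole cortex to ask how the genes divide between the 2 compartments as tissue. Fabp4 was higher and Car3 lower in medulla, and Adipoq, Lpl and Pparg were not called. Of the 5 members tested 1 was called higher and 1 lower; among all genes 23.9% were called, 18.5% higher and 5.38% lower. Fabp4 had 6255 ± 964 in medulla and 3096 ± 714 in cortex (SD, n = 7 each), and the fitted log2 fold change was 1.03 (SE 0.14, adjusted p = 1.1e-07) with no overlap between the groups. No overlap was found for 19% of all genes in that direction and 10.9% in the other. The second Fabp4 probe set gave 1.49 (SE 0.17, adjusted p = 4.1e-09). The first value lies close to the size needed for a call: it was 0.98 without whole cortex replicate 6, 0.91 without whole cortex replicate 7, 0.98 without whole medulla replicate 1 and 0.82 in the wide-tail arrays alone, with adjusted p-values of at most 3.1e-05 in these 4 fits.

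Car3 had 193 ± 38 in medulla and 622 ± 568 in cortex (SD, n = 7 each), and the fitted log2 fold change was -1.16 (SE 0.34, adjusted p = 0.0032), and the arrays overlapped. Whole cortex replicate 3 carried much of it, since the value without that array was -0.85 (adjusted p = 0.015), under the size needed for a call. Without the wide-tail arrays, which leaves 2 arrays of each group, it was -0.4 (adjusted p = 0.43), in the wide-tail arrays alone -1.47 (adjusted p = 0.0083), and on the second probe set -0.48 (adjusted p = 0.15). The call thus rested on the wide-tail arrays, on whole cortex replicate 3 among them, and on 1 probe set. Mylpf, the muscle marker, was lower in medulla as well, with 299 ± 82.6 in medulla and 1037 ± 324 in cortex (SD, n = 7 each; log2 fold change -1.69, adjusted p = 1.4e-11), whereas Pvalb and Tnni2 of the same list were called higher; the part of muscle transcripts in the Car3 difference was not tested.

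Pparg had 20.3 ± 18.5 in medulla and 66 ± 47.4 in cortex (SD, n = 7 each; log2 fold change -0.87, SE 0.31, adjusted p = 0.016), under the size needed for a call. After quantile normalization it was -1.05 and with the smaller offset of 6.55 it was -1.3, both past that size, as it was without whole cortex replicate 5 (-1.11), whole cortex replicate 7 (-1.05) or whole medulla replicate 1 (-1). Adipoq gave 0.49 (SE 0.22, adjusted p = 0.049) and 0.14 (adjusted p = 0.66) after quantile normalization, and Lpl gave -0.28 (SE 0.13, adjusted p = 0.065). Cidec, fitted without the filter, gave -0.11 (SE 0.32, adjusted p = 0.81). All medians of this comparison carry a shift, since the median of all genes was 0.11 as deposited and -0.03 after quantile normalization.

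Calls among other genes of fat metabolism went in 1 direction in medulla, in a comparison that leaned the same way. Among all genes 18.5% were called higher and 5.38% lower. Of the 15 other adipocyte genes tested, 7 were called higher and 0 lower, with a median log2 fold change of 0.51 beside 0.11 over all genes. Sncg, a synuclein of neurons and adipocytes, had 409.9 ± 121 in medulla and 42 ± 31.1 in cortex (SD, n = 7 each; log2 fold change 2.77, adjusted p = 6.1e-11). Cebpa, the transcription factor that acts with PPARG in fat and also in myeloid cells, had 924 ± 211 in medulla and 244 ± 58.6 in cortex (1.81, adjusted p = 3.9e-11). The insulin-regulated glucose transporter Slc2a4 (1.46) and the desaturase Scd1 (1.38) followed. Fasn went the other way without reaching the size of a call, with 1114 ± 164 in medulla and 2186 ± 291 in cortex (SD, n = 7 each; log2 fold change -0.96, SE 0.1, adjusted p = 2.1e-10) and no overlap. Leptin and Aqp7 were at or below the array median on all 14 arrays of whole medulla and whole cortex.

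Some relatives of Fabp4 and Car3 were higher in medulla, where 18.5% of all genes were called higher and 5.38% lower. Of 6 fatty acid binding proteins tested 4 were called higher and 0 lower: Fabp6 of ileum (3.51), Fabp1 of liver and gut (2.77), Fabp2 of gut (2.41) and Pmp2 of myelin (1.45). Fabp5 had 32925 ± 7334 in medulla and 40394 ± 7935 in cortex (SD, n = 7 each; log2 fold change -0.3, adjusted p = 0.034), which was not called and overlapped. Of 9 carbonic anhydrases tested 5 were called higher and 0 lower, among them the membrane-bound Car4 (2.18), the secreted Car6 (2.13), Car8 (2.04) and Car7 (1.27), the opposite direction to Car3. Among 7 genes that act with lipoprotein lipase, its activator Apoc2 (3.1) and its inhibitor Apoc3 (2.18) were called higher and 0 lower. In the alternative complement pathway, where adipsin acts, 4 of 4 tested genes were called higher: factor B (Cfb, 3.1), the receptor C3ar1 (1.57), factor I (Cfi, 1.18) and properdin (Cfp, 1.13). Of 6 droplet relatives of Plin1 and Cidec, Cideb (1.13) was called higher and 0 lower, and of 6 genes of the PPAR family and its partners 0 were called by limma, with 3 at an unadjusted p under 0.05. Macrophage markers, 4 of 10 called higher and 2 lower, summed to 30559.8 to 40534 in medulla and 10435 to 14919.6 in cortex. Endothelial markers, 4 of 10 tested called higher and 0 lower, summed to 2762 to 3326 in medulla and 1447 to 2131 in cortex. Medullary epithelial markers, 5 of 5 called higher, summed to 13707 to 15557 in medulla and 566 to 924 in cortex. Lymph node markers, 4 of 4 tested called higher, summed to 1199 to 1901 in medulla and 157 to 448 in cortex, and mesothelial markers, 3 of 5 called higher, to 1223 to 1923 in medulla and 321 to 654 in cortex. None of these 5 sums overlapped, and their part in the differences of Fabp4 and of the genes listed with it was not tested.

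Perimedullary cortex was compared with central cortex as a contrast inside the cortex without the capsule. Of the 5 members tested 0 were called by limma, beside 1.34% of all genes (1.31% higher and 0.0371% lower), and 1 of the 5 had an unadjusted p under 0.05. That gene was Lpl, with 4208 ± 481 in perimedullary and 3022 ± 466 in central cortex (SD, n = 3 each), and the fitted log2 fold change was 0.48 (SE 0.2, unadjusted p = 0.024, adjusted p = 0.34). Fabp4 had 799 ± 139 in perimedullary and 1022 ± 82.7 in central cortex (SD, n = 3 each; -0.36, SE 0.22, adjusted p = 0.67). The arrays of both genes did not overlap, which held for 13.9% of all genes in the direction of Lpl and 14.8% in that of Fabp4. Car3 (0.04, interval -1.01 to 1.09), Adipoq (-0.01, interval -0.69 to 0.67) and Pparg (0.18, interval -0.79 to 1.15) were near 0 with wide 95% intervals. Of the 15 other adipocyte genes 0 were called by limma, with 2 at an unadjusted p under 0.05.

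Tissue was compared with sorted thymocytes to ask which of these genes the lymphocytes themselves could supply. No member was above the array median on any sorted array, so the members passed the filter through tissue arrays only. A lower call was thus hardly possible for them. The counts, fold changes and adjusted p-values of members against sorted cells are therefore a description, not a test. In whole cortex against sorted cortical thymocytes 4 of the 5 members were called higher and 0 lower. Of all genes 11.1% were called, 9.57% higher and 1.51% lower. Fabp4 had 3096 ± 714 in cortex (SD, n = 7) and 16.3 ± 11.8 in cortical thymocytes (SD, n = 5), and the fitted log2 fold change was 6.2 (SE 0.16, adjusted p = 1.5e-27). For Lpl it was 5.1 (SE 0.15, adjusted p = 6.1e-26), for Car3 4 (SE 0.37, adjusted p = 4.2e-11) and for Adipoq 1.51 (SE 0.24, adjusted p = 4.2e-06), each without overlap. No overlap was found for 12.7% of all genes in that direction and 7.39% in the other. Pparg gave 0.86 (SE 0.34, adjusted p = 0.042), under the size needed for a call, and 1.01 to 1.1 without cortical thymocytes replicate 2 or 5 or whole cortex replicate 5 or 7, each past it. On the second Car3 probe set the value was 0.94 (adjusted p = 0.014), also under that size.

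In whole medulla against sorted medullary thymocytes the same 4 genes were called higher and 0 members lower. Of all genes 20.6% were called, 19.3% higher and 1.2% lower. Here too the members had passed the filter through tissue arrays only, so the count, fold changes and adjusted p-values of members are a description. Fabp4 had 6255 ± 964 in medulla (SD, n = 7) and 4.28 ± 1.72 in medullary thymocytes (SD, n = 5), and the fitted log2 fold change was 7.67 (SE 0.16, adjusted p = 1.3e-30). For Lpl it was 4.83 (SE 0.15, adjusted p = 1.5e-25), for Car3 2.23 (SE 0.37, adjusted p = 4e-06) and for Adipoq 1.59 (SE 0.24, adjusted p = 7.4e-07), each without overlap, as for 21.1% of all genes in that direction and 7.77% in the other. Pparg gave 0.34 (SE 0.34, adjusted p = 0.44), and the second Car3 probe set 0.05 (adjusted p = 0.91). Cidec, fitted without the filter, gave 0.13 (adjusted p = 0.81) for cortex and 0.51 (adjusted p = 0.26) for medulla against their thymocytes. RNA was prepared with RNAqueous Micro from tissue and with RNeasy Mini from sorted cells, so preparation and tissue against sorted cells cannot be told apart here.

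**Figure D4:**
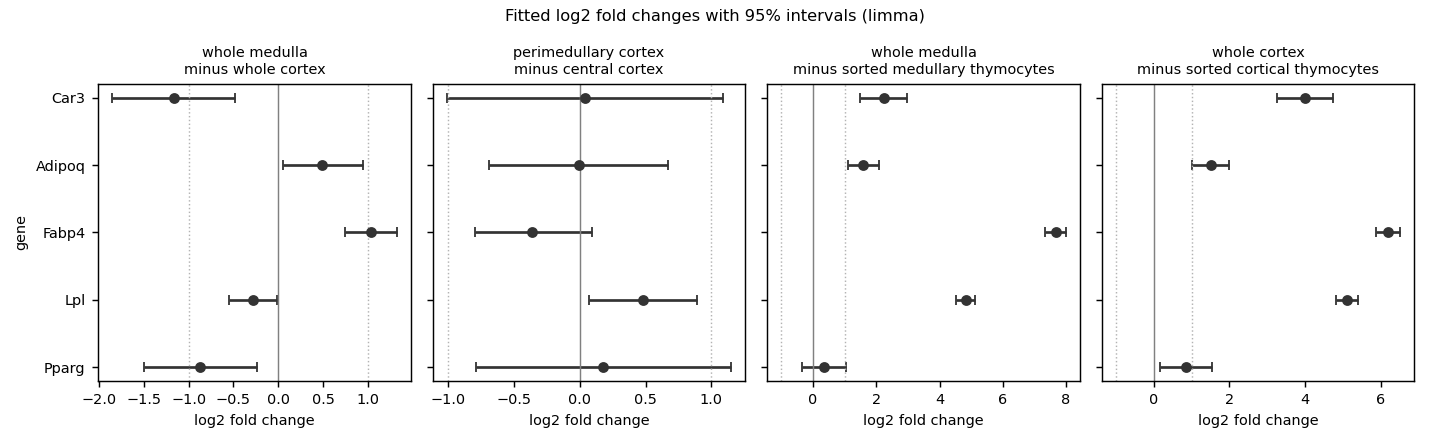
Log2 fold changes fitted by limma for the 5 genes that passed the filter, with 95% intervals, in 4 comparisons, a solid line at 0 and dotted lines at -1 and 1. Fabp4, Lpl, Car3 and Adipoq were higher in tissue than in sorted thymocytes of both compartments. That is a description, since these genes passed the filter through tissue arrays only. None of the 5 was called between perimedullary and central cortex.

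Of the other adipocyte genes, 2 of 15 were called higher in cortex than in cortical thymocytes (Scd1 2.76 and Cebpa 2.6) and 6 of 15 in medulla than in medullary thymocytes, led by Cebpa (4.61), Scd1 (4.23), Sncg (3.38) and the triglyceride-synthesis enzyme Dgat2 (2.31), with 0 lower in both. Partners of lipoprotein lipase were called higher in 3 of 7 in cortex: the fatty acid transporter Cd36 (3.3), the lipoprotein receptor Vldlr (2.04) and Gpihbp1, which anchors the lipase on capillaries (1.58). In medulla 4 of 7 were, among them Apoc2 (3.49) and Cd36 (3.2). Over all genes, higher calls made up 9.57% in cortex and 19.3% in medulla, and lower calls 1.51% and 1.2%. Rxra, the partner with which PPARG binds DNA, was called in cortex (1.34) and in medulla (1.16). All 10 macrophage markers were called higher in cortex and 9 of 10 in medulla than in the sorted cells, and their part in the Fabp4 and Lpl differences was not tested.

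How the listed genes varied together depended on the probe set and on the groups pooled. Over the 23 dissected arrays, which share scaling, fall into 5 groups and span the split between subregion and whole-region arrays, 4 of the 10 pairs among the 5 passing genes had a positive Pearson correlation of log2 signal, and also 4 without the 3 subcapsular arrays. Lpl and Fabp4 gave -0.9 over all 23, but -0.18 within whole cortex and -0.13 within whole medulla (n = 7 each). The sign turned with the second Lpl probe set, 1431056_a_at, which gave 0.71 with Fabp4, 0.4 with Adipoq and 0.3 with Car3, where 1415904_at gave -0.9, -0.76 and -0.43, and the Lpl probe sets gave -0.6 with each other. Fabp4 and Adipoq gave 0.76 over all 23, 0.25 within whole cortex and 0.07 within whole medulla. Car3 and Adipoq gave 0.58 over all 23, -0.1 within whole cortex and 0.1 within whole medulla. Within whole cortex, where Car3 varied most, its correlation was 0.83 with Lpl 1415904_at and 0.37 with 1431056_a_at.

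The genes most like the mean standardized profile of the 5 were ranked over the same 23 arrays. The first 10 were Slirp (r = 0.783), 1110059E24Rik, Sdhaf3, St13, Gng10, Atp6v1a, Asb7, Etfa, Slf1 and Naa20 (0.717). No other adipocyte gene was among them. That says little, since only 15 of the 20 were ranked and the 10 places were drawn from the 13463 genes tested, members left out. Slirp, a mitochondrial RNA-binding protein, had median signals of 3090.4 in subcapsular, 1613 in perimedullary and 1797 in central cortex, 2736 in whole medulla and 3481 in whole cortex. The mean profile itself followed Car3 (r = 0.78) and Adipoq (0.7) more than Fabp4 (0.38), Pparg (0.29) or Lpl (-0.33, on 1415904_at).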

How the data were processed

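Each sample was 1 Affymetrix expression array, hybridised with biotin-labelled RNA copied from oligo-dT primer, per the labels' protocols. The deposited intensity values were made by the authors with MAS5 in Affymetrix Expression Console 1.0, per the submitters' processing notes, and were used as given. MAS5 signals of dim probe sets are noisy, and their number of arrays limits the precision. Probe sets were named from the platform annotation: of 45037, 34945 had 1 symbol, 932 several and 9160 none, and 34741 matched by gene number. Listed genes without a probe set under their symbol were not analysed here.

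Probe sets above the array median on at least 3 arrays were kept, with the brightest per gene (13463 genes). Values were log2(signal + 26.2), the offset being the median 25th percentile of an array. One limma 3.58.1 model in R 4.3.3 held all 7 groups, with a trended prior and 26 residual degrees of freedom. P-values were Benjamini-Hochberg adjusted over all genes. The code was tested on simulated data. Alternatives were quantile normalization, a smaller offset, no filter, the mean of probe sets, only the groups compared, left-out arrays and a replicate block, plus the second probe sets, which were added after the data were seen.

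The members and gene lists were chosen with earlier results of these data known, and members were listed for the subcapsular contrast, which therefore has no test for them. Genes named from other lists were the up to 4 called with the largest change, or the brightest in subcapsular cortex where none was called; markers at or below the array median, the 10 genes most like the members' mean profile and 4 label checks were named too.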

Additional observations from a re-analysis of the deposited data

Results flagged for a closer look

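Within groups of 5 or 7 arrays, 7 of 52 pairs of probe set and group had 1 array far from the others by Dixon's criterion. Among the probe sets that passed the filter it was 4 of 32. Chance gives about 1 in 20 only for normally distributed values. That was not checked for these linear signals, so the counts show no excess. Whole medulla held 4 of the 7 pairs. Adipoq was lowest in whole medulla replicate 5, at 95.4 with the nearest array at 139, and Lpl (1415904_at) was highest in replicate 7, at 1814 with the nearest at 1457. Car3 on the dim probe set 1430584_s_at was highest in replicate 3, at 72.7 with the nearest at 34.7, and on 1453588_at in replicate 1, at 19 with the nearest at 5.71. In sorted cells, medullary thymocytes replicate 2 was highest on 2 Fabp4 probe sets, with 25 on 1451263_a_at (nearest 2.31) and 29.4 on 1424155_at (nearest 2.96). That array also had the highest Car3 signal of the sorted cells on 1449434_at, at 66.1. Cortical thymocytes replicate 2 was highest for Car3 on 1460256_at, at 56.1 with the nearest at 44.3.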

How the results depend on the processing

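Of 782 recomputed values, 742 were counted as unchanged, 19 moved, 10 passed the threshold, 10 fell short of it and 1 reversed. The 742 did not all keep their direction, since they include values near 0 that changed sign. With single arrays left out, Pparg in subcapsular minus central cortex ran from -0.29 to 0.14, around -0.12. Car3 in perimedullary minus central cortex ran from -0.3 to 0.26, around 0.04. Between whole medulla and whole cortex 2 members were called; 1 was called with the mean of probe sets, without the wide-tail arrays or in them alone, and 1 to 3 when single arrays were left out. The 2 other adipocyte genes called in cortex against cortical thymocytes became 4 with the offset of 6.55 and 4 with the replicate block. In subcapsular cortex the 0 other adipocyte genes became 1 against central cortex with the mean of probe sets, and 0 to 1 against perimedullary cortex when single arrays were left out. Fabp4 in subcapsular minus central cortex turned to 0.2, from -0.04, with the mean of probe sets. The rank of subcapsular cortex became 2 for Car3 (from 1) and 5 for Lpl (from 3) with the mean of probe sets, and 1 for Adipoq (from 3) after quantile normalization; the cause was not tested. Deviations of same-numbered arrays correlated at -0.08 to 0.26, highest between whole medulla and whole cortex for replicates 6 and 7 (0.26 each). Replicates 6 and 7 are also the only arrays of both whole regions without a wide tail, so the 2 cannot be told apart. The correlations cannot show whether same-numbered arrays share animals. With the replicate block, members called were 2 for medulla against cortex, 0 for perimedullary against central cortex, 5 (from 4, with Pparg at 1.05) for cortex and 4 for medulla against their thymocytes. Depth cannot be given for arrays. Signals under the array median, as on most arrays for Adipoq, Pparg and Cidec, are noisy, and orders that rest on them are uncertain.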

Other observations

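Single genes had closer companions than the list had. Over the 23 dissected arrays, and chosen after their values were seen, Mpp6 (r = 0.896), Cibar1 (0.886) and Etfa (0.868) were most like Car3, Glrx and Sri (0.978 each) most like Fabp4, and Klhl24 (0.93) and Fen1 (0.923) most like Lpl. None of these 7 genes was in a gene list used here. The arrays share scaling, fall into 5 groups and span the split between subregion and whole-region arrays, so the values describe these differences as well as variation within groups, and each rests on the brightest probe set.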
